A study of Mus musculus with 9 samples.

Results

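The 9 genes described here are a chosen set of genes for brakes on the mitotic cell cycle: the Cip/Kip inhibitors of cyclin-dependent kinases (CDKs) Cdkn1a, Cdkn1b and Cdkn1c, the INK4 inhibitors Cdkn2a, Cdkn2c and Cdkn2d, and the retinoblastoma or pocket proteins Rb1, Rbl1 and Rbl2. They were taken by name from the 24505 genes of the count table, and all 9 were present. Their mRNA was measured in 9 libraries of sorted male germ cells, 3 each of In/B (intermediate and type B) spermatogonia at postnatal day (P)17 and of preleptotene (PL) spermatocytes at P19 with (RA-sufficient) and without (RA-deficient) continued synthesis of retinoic acid (RA). The question behind the comparison is which transcripts depend on RA as spermatogonia stop mitosis and enter meiosis.

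All groups came from mice carrying the Uchl1-eGfp transgene, originally on C57BL/6 and outcrossed to CD-1, whose Uchl1 promoter makes spermatogonia bright and PL spermatocytes dim for EGFP. All received WIN 18,446, a blocker of RA synthesis, at 100 µg per g of body weight from P1 until P10 by the series description or P11 by the treatment record, and on P11 were injected once with RA (10 µl, 10 µg/µl). WIN 18,446 was then stopped for In/B and for RA-sufficient PL. For RA-deficient PL it was continued until the mice were killed, so that this group differs from the RA-sufficient one in drug exposure as well as in RA. No In/B group was kept on WIN 18,446. RA-deficient PL against In/B therefore compares stage, age and drug exposure together, and rises or falls given for it are differences between these groups. Testes were pooled for each preparation, from at least 5 pups or 3 adult males, and cells were sorted by EGFP brightness.

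CDKs paired with cyclins push cells from G1 into S phase by phosphorylating the pocket proteins, which otherwise hold E2F transcription factors in check. INK4 proteins bind CDK4 and CDK6 and keep them from D-type cyclins, whereas Cip/Kip proteins bind complexes of cyclin and CDK, above all those of CDK2. Rb1 encodes RB, which binds the activating E2Fs. Rbl1 and Rbl2 encode p107 and p130, which bind some repressive E2Fs and, with the MuvB proteins, form the DREAM complex of quiescent cells. In the testis, p27 (Cdkn1b) is known from Sertoli cells that have stopped dividing, RB from the maintenance of spermatogonial stem cells, and the INK4 proteins p18 (Cdkn2c) and p19Ink4d (Cdkn2d) from spermatocytes.

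Library totals ran from 12612959 to 27042274 counts, so that 3 counts corresponded to between 0.111 and 0.238 CPM (counts scaled to a common library size). Scaling was by the trimmed mean of M values (TMM) over all 9 libraries. The germ cell markers Ddx4, Dazl, Tex101, Uchl1 and Sycp3 summed to between 3458 and 7403 CPM in every library. The 9 measured Sertoli cell markers stood apart in the RA-sufficient PL libraries, with sums of 2879 to 3741 CPM, against 67.3 to 351.8 CPM in In/B and 290.2 to 516.5 CPM in RA-deficient PL. Sums of the 6 markers of differentiating spermatogonia (Kit, Stra8, Sohlh1, Sohlh2, Dmrt1 and Dmrtb1) were 1755, 1714 and 396.5 CPM in RA-deficient PL replicates 1, 2 and 3, 1439 to 1724 CPM in In/B and 346.3 to 777.0 CPM in RA-sufficient PL. Kit, the stem cell factor receptor of differentiating spermatogonia, was at 560.6, 521.1 and 20.3 CPM in those 3 RA-deficient libraries, so that replicate 3 stood apart from the other two. The first 2 of them were at or above the In/B levels of Kit, which were 404.1, 327.4 and 331.3 CPM. Not every marker of the list went with Kit. In the RA-deficient libraries Sohlh2 was at 202.5, 195.3 and 102.7 CPM, all above In/B (79.4 to 79.5 CPM), and Dmrtb1 at 93.5, 81.8 and 65.0 CPM. The 8 meiotic prophase markers summed to 5711, 5516 and 7354 CPM in RA-deficient PL, 4566 to 6536 CPM in RA-sufficient PL and 1298 to 1994 CPM in In/B. Because these are bulk libraries, fewer cells of a type and less RNA per cell cannot be told apart.

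As RA-sufficient cells went from In/B to PL, Rbl2 and Cdkn1b rose and Cdkn2a and Rbl1 fell, while the fitted changes of the other members stayed below 2-fold. In RA-deficient cells Cdkn1a alone passed both thresholds against In/B, downwards. Between the PL groups, Rbl2, Cdkn1a and Cdkn2d were lower and Cdkn2a was higher without RA. Genes were called where the fitted log2 fold change was beyond 1 in either direction and the adjusted p under 0.05. Adjusted p-values given as "by edgeR" are those of its quasi-likelihood test after Benjamini-Hochberg adjustment over all genes tested in that comparison. SE is the standard error of the fitted value.

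For RA-sufficient PL against In/B, all 9 members passed the filter on low counts and 2 were called higher and 2 lower, where 26.1% and 19.3% of all 15001 tested genes were called higher and lower. By adjusted p alone 2 members were higher and 3 lower, against 33.8% and 31.2% of all genes. In the comparison of RA-deficient PL with In/B, 8 of 9 members passed the filter, 0 were called higher and 1 lower, against 11.4% and 11.8% of 14877 genes. By adjusted p alone 1 was higher and 2 lower, against 18.4% and 18.3%. Between the PL groups (RA-deficient against RA-sufficient) all 9 passed the filter, 1 was called higher and 3 lower, against 4.47% and 11% of 15352 genes, and the counts by adjusted p alone were the same 1 and 3, against 11% and 12.6%. Groups did not overlap for 4 of 9, 3 of 8 and 6 of 9 tested members in these comparisons, where they did not overlap for 71.5%, 54.6% and 47.4% of all tested genes. The members' median log2 fold changes were -0.12, -0.37 and -0.69, beside 0.043, 0.0038 and -0.089 over all tested genes. Comparisons that share a group share its libraries, so that their results are not independent of each other.

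**Figure D1:**
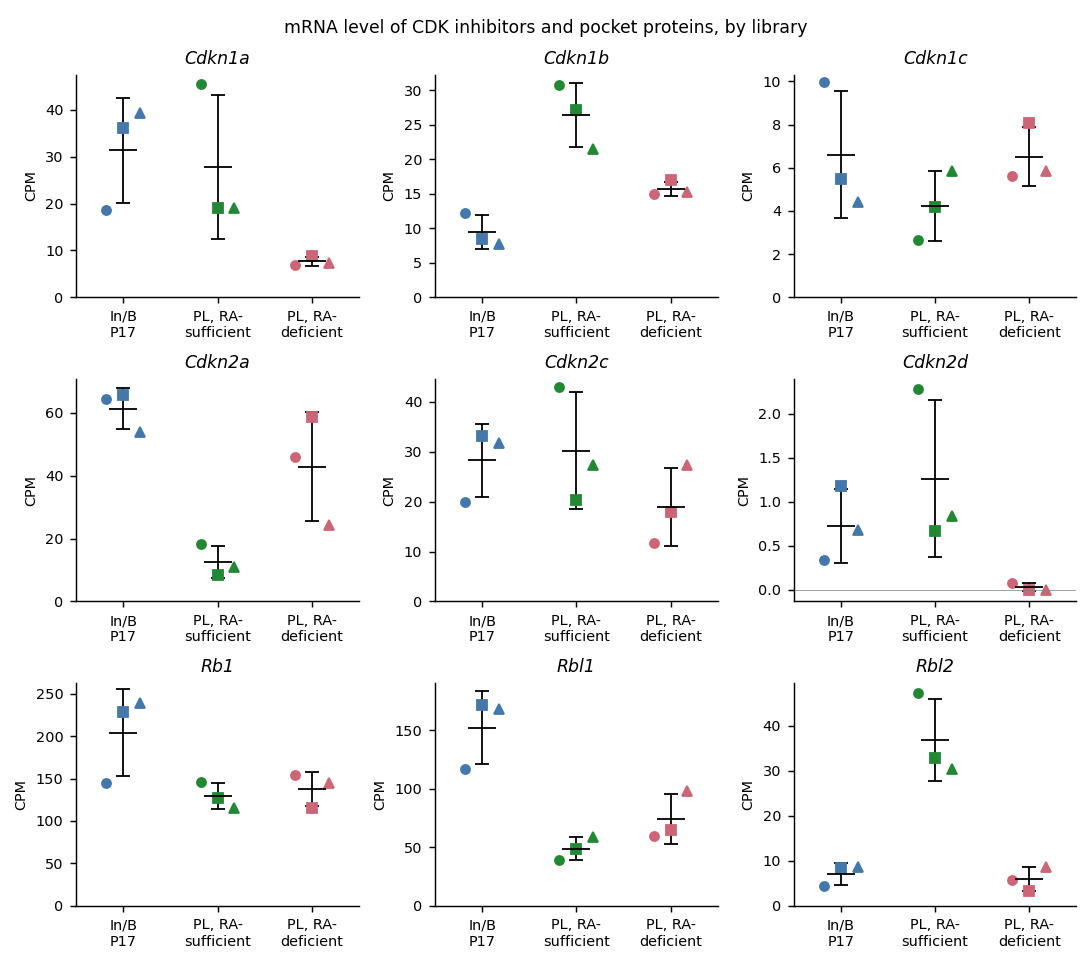
mRNA level in CPM (y axis, a separate linear scale from 0 in each panel) of the 9 genes in In/B spermatogonia, RA-sufficient PL and RA-deficient PL, with circles, squares and triangles for replicates 1, 2 and 3 and bars for the mean and SD (n = 3). Rbl2 stands at 30.3 to 47.3 CPM in RA-sufficient PL and at most at 8.70 CPM elsewhere, and Cdkn2a is lowest in RA-sufficient PL.

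Among the Cip/Kip inhibitors, Cdkn1a (p21, the inhibitor best known as a p53 target; mm9 chr17:29227924-29237667, plus strand) separated the PL groups. Its levels were 18.6, 36.3 and 39.3 CPM in In/B, 45.6, 18.98 and 19.01 CPM in RA-sufficient PL, and 6.96, 8.72 and 7.39 CPM in RA-deficient PL. The 3 RA-deficient libraries were the lowest of all 9, while the In/B and RA-sufficient ranges overlapped. RA-deficient PL was 3.63-fold below In/B, a log2 fold change of -1.86 (SE 0.32, adjusted p = 0.00309 by edgeR). The level was 3.68-fold below that of RA-sufficient PL (log2 fold change -1.88, SE 0.43, adjusted p = 0.0207 by edgeR). RA-sufficient PL replicate 1 was more than 2-fold above its 2 partners, and without it the log2 fold change between the PL groups was -1.28 (adjusted p = 0.0437 by edgeR). Without RA-deficient PL replicate 1 it was -1.78 and missed the threshold (adjusted p = 0.0573 by edgeR). RA-sufficient PL and In/B differed by a log2 fold change of -0.12 (SE 0.40, adjusted p = 0.811 by edgeR).

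Cdkn1b (p27, which holds CDK2 inactive in resting cells; chr6:134870419-134875531, plus strand) was at 12.2, 8.47 and 7.69 CPM in In/B, 30.7, 27.1 and 21.5 CPM in RA-sufficient PL, and 14.9, 16.9 and 15.2 CPM in RA-deficient PL. The 3 groups did not overlap, with In/B lowest and RA-sufficient PL highest. The rise in RA-sufficient PL was 2.90-fold (log2 fold change 1.54, SE 0.26, adjusted p = 0.000907 by edgeR). In RA-deficient PL the level was 1.86-fold that of In/B, below the 2-fold threshold (log2 fold change 0.90, SE 0.29, adjusted p = 0.0421 by edgeR). Without In/B replicate 1 this value was 1.13 and was called (adjusted p = 0.0264 by edgeR). RA-deficient PL had a log2 fold change of -0.76 from RA-sufficient PL (SE 0.25, adjusted p = 0.0621 by edgeR), which did not pass.

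Cdkn1c (p57, the imprinted member of the family; chr7:150644255-150646955, minus strand) was low throughout. Its levels were 9.95, 5.48 and 4.41 CPM in In/B, 2.65, 4.18 and 5.87 CPM in RA-sufficient PL, and 5.60, 8.08 and 5.86 CPM in RA-deficient PL. All pairs of groups overlapped, and the fitted log2 fold changes of -0.58, 0.14 and 0.63 did not pass in any comparison (adjusted p = 0.254, 0.832 and 0.322 by edgeR).

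Of the INK4 inhibitors, Cdkn2a (chr4:88920377-88940557, minus strand) was abundant in In/B. This locus has alternative first exons, the upstream one for p19Arf, which stabilizes p53, and the downstream one for p16Ink4a, which inhibits CDK4 and CDK6, and a count per gene pools both transcripts. Levels were 64.3, 65.9 and 53.9 CPM in In/B, 18.4, 8.49 and 11.1 CPM in RA-sufficient PL, and 45.9, 58.6 and 24.2 CPM in RA-deficient PL. The RA-sufficient libraries lay below all the others, and the RA-deficient range reached into that of In/B.

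The fall of Cdkn2a in RA-sufficient PL was 4.68-fold (log2 fold change -2.23, SE 0.28, adjusted p = 0.00019 by edgeR). RA-deficient PL was 3.36-fold above RA-sufficient PL (log2 fold change 1.75, SE 0.43, adjusted p = 0.0271 by edgeR). It differed from In/B by a log2 fold change of -0.35 (SE 0.30, adjusted p = 0.424 by edgeR), which did not pass. The call between the PL groups was lost on leaving out RA-sufficient PL replicate 2 or 3 or RA-deficient PL replicate 1 or 2, with log2 fold changes of 1.52, 1.63, 1.72 and 1.48 and adjusted p of 0.0944, 0.099, 0.0591 and 0.0662 by edgeR. The lowest RA-deficient level of Cdkn2a was that of replicate 3, the library with a low sum of differentiating spermatogonia markers. The part of such cells in the Cdkn2a difference was not tested. Without that replicate the log2 fold change was 2.06 (adjusted p = 0.00257 by edgeR).

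Cdkn2c (p18Ink4c; chr4:109333481-109339794, minus strand) was at 19.96, 33.2 and 31.8 CPM in In/B, 43.1, 20.3 and 27.4 CPM in RA-sufficient PL, and 11.8, 17.9 and 27.3 CPM in RA-deficient PL. The groups overlapped in all 3 comparisons. Its log2 fold changes of 0.15, -0.40 and -0.69 did not pass (adjusted p = 0.675, 0.407 and 0.26 by edgeR).

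Cdkn2d (p19Ink4d; chr9:21092907-21095653, minus strand) was the least abundant member. It had 6, 31 and 12 counts in In/B, 31, 11 and 19 counts in RA-sufficient PL, and 2, 0 and 0 counts in RA-deficient PL, and thus lay lowest in RA-deficient PL. The RA-deficient libraries held 25048240 to 27042274 counts, yet they had counts for fewer genes of the whole table, 14769 to 15327 against 16758 to 18434 in the other 6 libraries, and the part of this in the Cdkn2d difference was not tested. Relative to library totals, the summed counts of RA-sufficient PL were 47.9 times those of RA-deficient PL, with a 95% interval from counting error alone of 12.7 to 404.8. The difference passed (adjusted p = 0.0394 by edgeR), but not without RA-sufficient PL replicate 1, 2 or 3 (adjusted p = 0.139, 0.105 and 0.108 by edgeR) or RA-deficient PL replicate 2 (adjusted p = 0.0802 by edgeR). For In/B over RA-deficient PL the same ratio was 31.9, with an interval of 8.36 to 270.4, and that comparison was not tested since the gene did not pass the filter on low counts. In/B and RA-sufficient PL overlapped, with a log2 fold change of 0.80 (SE 0.66, adjusted p = 0.313 by edgeR).

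The pocket proteins moved in opposite directions in RA-sufficient cells. Rbl2 (p130, the pocket protein of quiescent cells; chr8:93593956-93647743, plus strand) was at 4.31, 8.32 and 8.53 CPM in In/B, 47.3, 32.9 and 30.3 CPM in RA-sufficient PL, and 5.72, 3.29 and 8.70 CPM in RA-deficient PL. Every RA-sufficient library was above every other library, and the In/B and RA-deficient ranges overlapped. The rise was 5.43-fold in RA-sufficient PL (log2 fold change 2.44, SE 0.31, adjusted p = 0.000199 by edgeR). RA-deficient PL was 6.31-fold below RA-sufficient PL (log2 fold change -2.66, SE 0.41, adjusted p = 0.00559 by edgeR). Against In/B it had a log2 fold change of -0.088 (SE 0.48, adjusted p = 0.909 by edgeR).

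The exons of Rbl2 share 693 bases with those of Aktip on the other strand, and the sources used here do not state whether strand was used in counting. Aktip was at 101.1 ± 16.3 CPM in In/B, 53.3 ± 4.70 CPM in RA-sufficient PL and 48.7 ± 3.98 CPM in RA-deficient PL (mean ± SD, n = 3). Its level was thus lower in RA-sufficient PL than in In/B, the reverse of Rbl2.

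Rbl1 (p107, itself an E2F target and found in cycling cells; chr2:156971629-157030270, minus strand) was at 116.8, 172.0 and 168.7 CPM in In/B, 39.2, 48.8 and 58.7 CPM in RA-sufficient PL, and 59.4, 64.7 and 98.4 CPM in RA-deficient PL. The 3 groups did not overlap, with In/B highest. The fall in RA-sufficient PL was 2.99-fold (log2 fold change -1.58, SE 0.20, adjusted p = 0.000174 by edgeR). In RA-deficient PL the fall was 1.83-fold (log2 fold change -0.87, SE 0.23, adjusted p = 0.02 by edgeR), short of the 2-fold threshold. It was called without In/B replicate 1, at -1.03, and without RA-deficient PL replicate 3, at -1.12 (adjusted p = 0.0212 and 0.00135 by edgeR). Between the PL groups the log2 fold change was 0.60 (SE 0.24, adjusted p = 0.108 by edgeR).

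Rb1 (RB, the founding pocket protein; chr14:73583480-73725629, minus strand) had the highest counts of the 9. Its levels were 145.3, 228.1 and 239.6 CPM in In/B, 145.6, 127.5 and 115.6 CPM in RA-sufficient PL, and 153.8, 115.4 and 144.5 CPM in RA-deficient PL. The lowest In/B library was within the range of both PL groups. RA-sufficient PL was 1.52-fold below In/B, which passed by adjusted p but not by size (log2 fold change -0.60, SE 0.19, adjusted p = 0.0209 by edgeR). A value of -0.40 between RA-deficient PL and In/B and of 0.080 between the PL groups did not pass (adjusted p = 0.166 and 0.756 by edgeR). Rb1 shares 488 exonic bases with Rcbtb2 and 408 with Lpar6, both on the other strand, and their mean levels of at most 22.4 and 0.523 CPM in any group were far below its own.

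**Figure D2:**
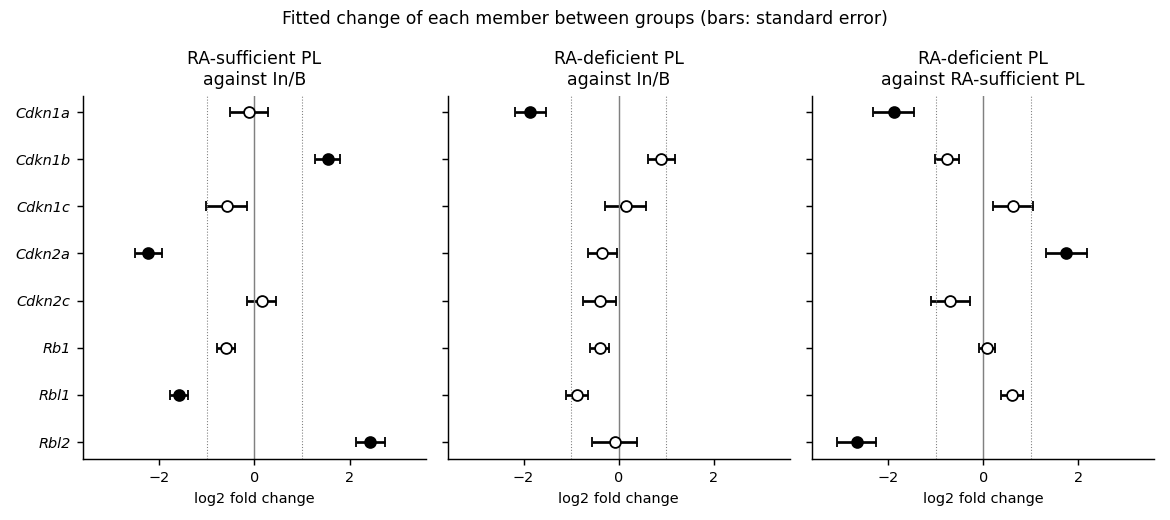
Fitted log2 fold change (x axis) of 8 members in the 3 comparisons, with bars for 1 SE, filled points for genes called and dotted lines at -1 and 1. Cdkn2d is left out because its fitted value against near-empty libraries has no fixed size, and Rbl2 shows 2.44, -0.088 and -2.66 from left to right.

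To compare genes with each other, CPM was divided by the length of all exons of the gene in GENCODE M1. In In/B the order was Cdkn2a (52.4 ± 5.57 CPM per kb), Rb1 (34.0 ± 8.56), Rbl1 (25.4 ± 5.17), Cdkn1a (14.1 ± 5.03), Cdkn2c (10.5 ± 2.70), Cdkn1c (3.43 ± 1.52), Cdkn1b (2.08 ± 0.528), Rbl2 (1.01 ± 0.342) and Cdkn2d (0.573 ± 0.331; SD, n = 3). Overlapping neighbours in this order were Rb1 with Rbl1, Cdkn1a with Cdkn2c, Cdkn1c with Cdkn1b, and Rbl2 with Cdkn2d. In RA-sufficient PL the levels per kb drew together. Rb1 led at 21.5 ± 2.52 CPM per kb, followed by Cdkn1a (12.5 ± 6.92), Cdkn2c (11.3 ± 4.33), Cdkn2a (10.8 ± 4.39), Rbl1 (8.16 ± 1.62), Cdkn1b (5.81 ± 1.02), Rbl2 (5.29 ± 1.32), Cdkn1c (2.19 ± 0.833) and Cdkn2d (0.993 ± 0.698). Of these neighbours, only Rbl2 and Cdkn1c did not overlap. RA-deficient PL was led by Cdkn2a (36.7 ± 14.9 CPM per kb) and Rb1 (22.9 ± 3.33), which overlapped, and ended with Rbl2 (0.848 ± 0.389) and Cdkn2d (0.021 ± 0.0363). Between them stood Rbl1 (12.4 ± 3.53), Cdkn2c (7.07 ± 2.91), Cdkn1a (3.46 ± 0.412), Cdkn1b (3.45 ± 0.237) and Cdkn1c (3.37 ± 0.707), with overlap between Rbl1 and Cdkn2c and among the last 3.

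**Figure D3:**
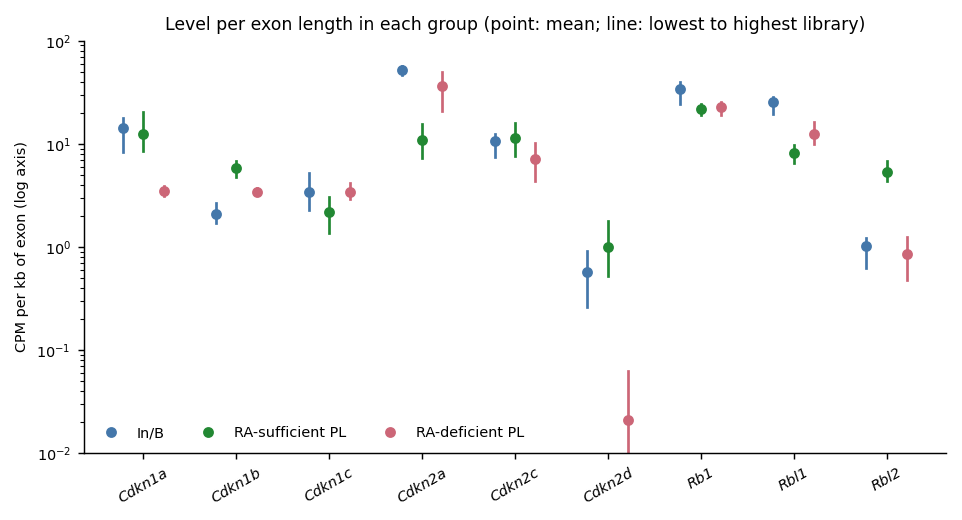
Level in CPM per kb of exon (log y axis) of each gene, with points for the mean and lines from the lowest to the highest of 3 libraries in each group. The line of Cdkn2d in RA-deficient PL is cut at the axis because 2 of its libraries are at 0, and Cdkn2a leads in In/B (52.4) and RA-deficient PL (36.7) whereas Rb1 leads in RA-sufficient PL (21.5).

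The rises of Rbl2 and Cdkn1b in RA-sufficient PL came in the libraries with the highest Sertoli marker sums. All 9 measured Sertoli genes were higher in every RA-sufficient PL library than in any other library, and without the most abundant pair, Clu and Inha, the other 7 summed to 561.2 to 745.8 CPM in RA-sufficient PL, 23.2 to 66.7 CPM in In/B and 69.1 to 113.8 CPM in RA-deficient PL. Sox9, the Sertoli cell transcription factor, was at 64.2, 53.2 and 61.4 CPM in RA-sufficient PL and at 2.01, 8.28 and 5.60 CPM in In/B. The library with the highest Sertoli sum, RA-sufficient PL replicate 1 (3741 against 2879 and 2902 CPM in its partners), also had the highest level of Rbl2, Cdkn1b, Cdkn1a, Cdkn2c and Cdkn2d. Among the RA-sufficient libraries it was also highest in Cdkn2a and Rb1, and lowest in Cdkn1c, Rbl1 and total counts. It stood apart in Stra8 (444.1 against 126.2 and 120.6 CPM) and in the meiotic gene Spo11 (44.7 against 111.1 and 129.1 CPM). Which of these goes with the members' levels was not tested.

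Markers of other somatic cells were mixed. The 10 peritubular and stromal genes summed to 1018 to 1387 CPM in RA-sufficient PL, 108.2 to 169.7 CPM in In/B and 164.8 to 209.5 CPM in RA-deficient PL, mostly through Sparc (953.8 ± 186.2 CPM in RA-sufficient PL; mean ± SD, n = 3) and Vim (129.5 ± 18.8 CPM). The other 8 summed to 67.8 to 77.7, 65.8 to 89.6 and 100.0 to 121.2 CPM in the same order, and 4 of the 10, Sparc, Vim, Acta2 and Col3a1, were above every library of both other groups. Col1a1 went the other way, at 11.7 ± 4.96 CPM in RA-sufficient PL against 56.7 ± 12.3 CPM in In/B and 64.4 ± 6.71 CPM in RA-deficient PL. The 8 Leydig cell markers summed to 111.7 to 118.2 CPM in RA-sufficient PL, 11.6 to 24.1 CPM in In/B and 18.4 to 35.4 CPM in RA-deficient PL, with Nr5a1, which Sertoli cells also express, as the most abundant at 72.9 CPM on average. Of these 8, 4 (Star, Cyp11a1, Nr5a1 and Hsd3b6) were above every library of both other groups. Without Nr5a1 and Star the other 6 summed to 18.4 to 25.1 CPM in RA-sufficient PL. Their sums were 3.17 to 5.48 CPM in In/B and 2.69 to 12.2 CPM in RA-deficient PL. The defining Leydig gene Insl3 was at 0 in In/B and RA-deficient PL and at a mean of 0.0147 CPM in RA-sufficient PL. The 9 markers of macrophages, blood and endothelium stayed at 6.92 to 23.3 CPM in all libraries, with the hemoglobin genes at 0. The part of somatic cells in the differences of the members was not tested.

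**Figure D4:**
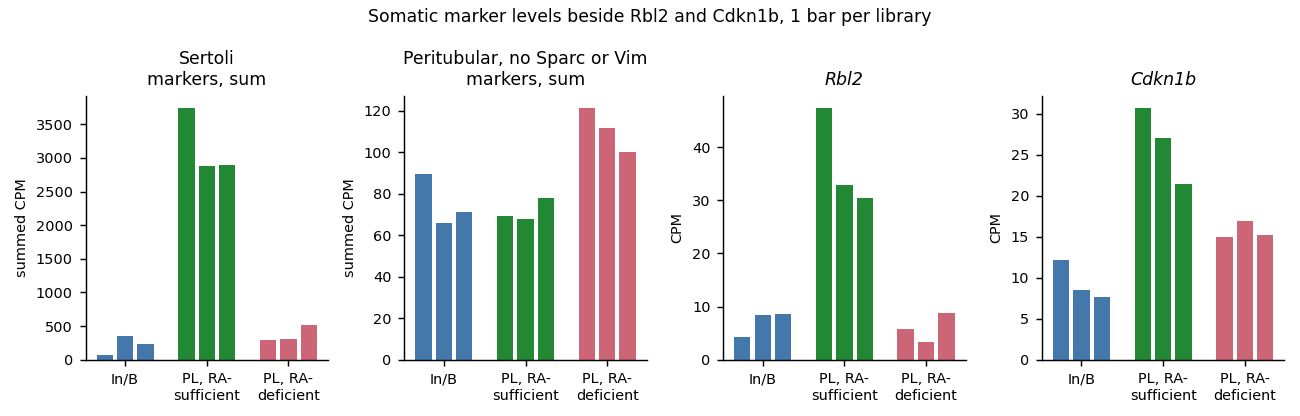
Summed CPM of the 9 Sertoli markers and of the 8 peritubular and stromal markers other than Sparc and Vim, and CPM of Rbl2 and Cdkn1b, with 1 bar per library (replicates 1 to 3 from left to right) in In/B, RA-sufficient PL and RA-deficient PL. The Sertoli sum, Rbl2 and Cdkn1b are highest in RA-sufficient PL, whereas the sum of the 8 peritubular and stromal markers is highest in RA-deficient PL (100.0 to 121.2 CPM).

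Across the 9 libraries, Rbl2 was most like Tekt1, a tektin of ciliary and flagellar microtubules (Pearson's r = 0.994 on log2 CPM), and Gja1, the gap junction gene for connexin 43 (r = 0.993), of 12092 genes compared. Tekt1 averaged 2.82, 30.6 and 2.08 CPM and Gja1 9.53, 130.1 and 5.64 CPM in In/B, RA-sufficient PL and RA-deficient PL. There were 1060 genes with r above 0.9 to Rbl2, 503 to Cdkn2a, 301 to Rbl1, 152 to Cdkn1b and 114 to Cdkn1a, but 23 to Rb1, 5 to Cdkn1c and 3 to Cdkn2c. The closest were Uqcrc1 for Cdkn2a (r = 0.993), Seh1l for Rbl1 (r = 0.991), Map4k4 for Cdkn1b (r = 0.977) and Mb21d1 for Cdkn1a (r = 0.964). Since the 9 points fall into 3 groups and share library depth, these values describe likeness of pattern only.

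The 5′ flanks of the 4 members called between the PL groups are shown for the letters around their starts, with the 250 bases before each start taken from RefSeq on GRCm38.p6, a later build than the mm9 of the counts. All are written 5′ to 3′ on the strand of the gene. Those of Cdkn1a start 1 lie at chr17:29090729-29090978 on the plus strand, those of Cdkn2a starts 1 and 2 (p19Arf and p16Ink4a) at chr4:89294620-89294869 and chr4:89282193-89282442 on the minus strand, those of Cdkn2d at chr9:21291210-21291459 on the minus strand, and those of Rbl2 at chr8:91069807-91070056 on the plus strand. Capitals mark the motif letters found.
Cdkn1a start 1: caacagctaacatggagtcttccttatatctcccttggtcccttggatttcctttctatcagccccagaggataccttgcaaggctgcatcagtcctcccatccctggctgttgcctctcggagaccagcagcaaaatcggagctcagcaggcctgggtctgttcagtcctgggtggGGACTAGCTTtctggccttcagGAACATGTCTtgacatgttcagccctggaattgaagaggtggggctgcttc
Cdkn2a start 1: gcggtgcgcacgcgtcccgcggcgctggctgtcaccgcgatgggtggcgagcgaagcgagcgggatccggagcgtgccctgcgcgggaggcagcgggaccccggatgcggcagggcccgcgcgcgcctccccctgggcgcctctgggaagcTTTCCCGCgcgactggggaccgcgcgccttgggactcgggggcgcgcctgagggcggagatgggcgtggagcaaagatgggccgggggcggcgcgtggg
Cdkn2a start 2: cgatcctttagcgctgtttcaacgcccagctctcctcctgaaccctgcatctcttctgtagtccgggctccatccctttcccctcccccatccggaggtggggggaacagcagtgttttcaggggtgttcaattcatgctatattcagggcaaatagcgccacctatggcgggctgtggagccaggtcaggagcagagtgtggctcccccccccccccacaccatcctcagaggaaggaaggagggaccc
Cdkn2d: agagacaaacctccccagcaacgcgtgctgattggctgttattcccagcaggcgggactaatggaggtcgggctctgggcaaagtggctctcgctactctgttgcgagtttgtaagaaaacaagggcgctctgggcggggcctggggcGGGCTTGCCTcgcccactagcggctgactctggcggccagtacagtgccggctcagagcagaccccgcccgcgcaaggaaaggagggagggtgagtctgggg
Rbl2: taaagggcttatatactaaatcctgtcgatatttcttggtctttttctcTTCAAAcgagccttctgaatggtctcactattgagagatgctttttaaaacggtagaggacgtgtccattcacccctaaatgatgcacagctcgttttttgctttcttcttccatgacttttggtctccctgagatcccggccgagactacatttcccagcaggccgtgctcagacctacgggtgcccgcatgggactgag

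Windows of 250 bases before to 50 bases after each start were searched on both strands for E2F letters (TTTCCCGC or TTTGGCGC), the CHR letters TTTGAA bound by MuvB complexes, the p53 half-site, and RA response elements as direct repeats with spacings named DR1, DR2 and DR5. Of 32851 windows in the RefSeq table, 1.56% held either E2F form, 17.9% the CHR letters and 8.36% a p53 half-site. The direct repeats were in 0.222%, 0.268% and 0.0974% of windows. Windows were found by symbol for 7 of the 9 members. Cdkn1a start 1 held p53 half-sites at -73 to -64 and -51 to -42 from the start, Cdkn2a start 1 held TTTCCCGC at -99 to -92, Cdkn2d held a p53 half-site at -102 to -93, and Rbl2 held the CHR letters on the reverse strand at -201 to -196. Cdkn1a also has a start 2, with a flank at chr17:29093519-29093768 that is not printed. Neither that start nor Cdkn2a start 2 held any of the letters searched. No direct repeat was matched in the members' windows, which speaks only for these letters in these windows.

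The rest of the pathway was described by 80 genes in 8 lists, of which 79 were tested in each comparison. From In/B to RA-sufficient PL, 7 were called higher and 36 lower, against 26.1% and 19.3% of all tested genes. The median log2 fold change was -0.82 beside 0.043 over all genes. From In/B to RA-deficient PL, 7 were called higher and 24 lower, against shares of 11.4% and 11.8%, with a median of -0.44 beside 0.0038. Between the PL groups, 3 were called higher and 1 lower without RA, against shares of 4.47% and 11%. The median there was 0.35 beside -0.089. That last count of 4 was 17 without RA-deficient PL replicate 3 and 2 without RA-deficient PL replicate 1 or RA-sufficient PL replicate 1 or 2. Whether any list departs from these shares of all tested genes was not tested.

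In the list of G1 and S phase cyclins and CDKs, which also held the phosphatase gene Cdc25a and, for Cdk3, the row named Cdk3-ps, a pseudogene name, 2 of 12 were called higher and 4 lower in RA-sufficient PL, and 0 higher and 3 lower in RA-deficient PL against In/B. Ccnd1, the D-type cyclin of proliferating cells, fell from 308.3 ± 45.3 CPM in In/B to 15.8 ± 1.88 CPM in RA-sufficient PL (mean ± SD, n = 3; log2 fold change -4.23, SE 0.17, adjusted p = 1.03e-05 by edgeR). In RA-deficient PL it was at 76.9, 86.4 and 8.04 CPM, with replicate 3 again the lowest. Ccna2, the S phase cyclin, fell from 325.2 ± 3.22 CPM to 41.2 ± 8.82 CPM in RA-sufficient and 56.8 ± 23.9 CPM in RA-deficient PL, both called.

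Ccnd2, a D-type cyclin that Sertoli cells also express, was at 23.3, 18.3 and 16.5 CPM in In/B, 49.8, 79.3 and 60.3 CPM in RA-sufficient PL, and 18.4, 18.2 and 14.8 CPM in RA-deficient PL. It was higher in RA-sufficient PL than in both other groups, with log2 fold changes of 1.76 over In/B and -1.88 between the PL groups (adjusted p = 0.000202 and 0.00242 by edgeR). The Sertoli marker sums were also highest in RA-sufficient PL. Among the 3 RA-sufficient libraries, replicate 1 had the highest Sertoli sum and the lowest Ccnd2. The part of Sertoli cells in the Ccnd2 levels was not tested. Ccna1, the germline A-type cyclin, rose from 2.83 ± 0.84 CPM to 28.4 ± 9.59 CPM in RA-sufficient PL (log2 fold change 3.39, SE 0.35, adjusted p = 6.91e-05 by edgeR). In RA-deficient PL it was at 0, 0 and 6.30 CPM, so that its level there rests on replicate 3. It was not called against In/B (log2 fold change -0.27, SE 1.75, adjusted p = 0.924 by edgeR) or between the PL groups. Ccnd3 was higher in RA-deficient than in RA-sufficient PL, at 20.2 ± 4.51 against 8.08 ± 0.678 CPM (log2 fold change 1.32, SE 0.28, adjusted p = 0.016 by edgeR). The CDK-activating kinase genes Cdk7, Ccnh and Mnat1 had 0 of 3 called in any comparison.

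Of the 10 E2F and DP factors, 0 were called higher and 6 lower in RA-sufficient PL against In/B. In RA-deficient PL against In/B, 1 was called higher and 5 lower. E2f7, a repressive E2F, fell from 133.3 ± 17.3 CPM to 10.0 ± 2.58 CPM in RA-sufficient and 21.5 ± 2.67 CPM in RA-deficient PL, and it was the only one of the 10 called between the PL groups (log2 fold change 1.10, SE 0.28, adjusted p = 0.0296 by edgeR). E2f2, an activating E2F, was at 75.5, 116.8 and 107.5 CPM in In/B and at 8.46, 3.82 and 4.23 CPM in RA-sufficient PL, a log2 fold change of -4.14 (SE 0.33, adjusted p = 2.39e-05 by edgeR). Its RA-deficient levels were 34.2, 34.6 and 1.57 CPM, with a log2 fold change of -1.92 from In/B that did not pass (SE 0.83, adjusted p = 0.111 by edgeR).

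Of the 8 MuvB and MYB partners, 3 were called higher and 4 lower in RA-sufficient PL, and 2 higher and 2 lower in RA-deficient PL against In/B, with 0 called between the PL groups. Mybl1 (A-MYB, the transcription factor of spermatocytes) rose from 13.3 ± 5.35 CPM to 177.9 ± 14.2 and 155.5 ± 61.2 CPM, and Lin9, a MuvB subunit, from 36.6 ± 7.93 to 87.3 ± 14.3 and 95.4 ± 17.2 CPM, in RA-sufficient and RA-deficient PL. Mybl2 (B-MYB, of cycling cells) fell from 86.6 ± 3.65 CPM to 15.0 ± 3.05 and 29.1 ± 15.2 CPM in the same groups. These were called in both comparisons with In/B.

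Of 12 genes for the turnover of p27 and p21, 0 were called higher and 2 lower in RA-sufficient PL and 0 higher and 3 lower in RA-deficient PL against In/B, with 0 called between the PL groups. Skp2, the ubiquitin ligase subunit that recognizes p27, fell from 48.0 ± 2.40 CPM to 16.2 ± 3.19 CPM in RA-sufficient and 15.3 ± 4.35 CPM in RA-deficient PL. Its cofactor Cks1b fell from 58.2 ± 13.6 CPM to 10.3 ± 3.15 and 13.3 ± 0.589 CPM. Both were called in both comparisons with In/B.

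Of 11 tested genes of the p53 axis, 1 was called higher and 8 lower in RA-sufficient PL, and 1 higher and 5 lower in RA-deficient PL against In/B, with 0 called between the PL groups. By adjusted p alone 2 were lower without RA, Trp53 (log2 fold change -0.60) and Mdm4 (-0.40; adjusted p = 0.0436 and 0.0397 by edgeR). Trp53 itself fell from 121.1 ± 11.6 CPM to 50.4 ± 1.74 CPM in RA-sufficient and 33.4 ± 3.85 CPM in RA-deficient PL. The p53 targets Ccng1 and Phlda3 fell from 178.5 ± 31.7 and 23.4 ± 2.07 CPM to 16.4 ± 3.48 and 0.997 ± 0.371 CPM in RA-sufficient PL, and to 11.5 ± 2.05 and 1.47 ± 0.357 CPM in RA-deficient PL. Another p53 target, Sesn2, rose from 30.1 ± 0.82 CPM to 112.5 ± 7.78 and 82.4 ± 11.7 CPM. Each was called in both comparisons with In/B.

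Of the 7 other inhibitors and regulators, 1 was called higher in each comparison with In/B, and it was Cdkn3, a phosphatase that dephosphorylates CDK2. It rose from 11.2 ± 3.47 CPM to 83.3 ± 12.2 CPM in RA-sufficient and 65.6 ± 26.9 CPM in RA-deficient PL. Cdkn2b (p15Ink4b), the neighbour of Cdkn2a, was at 4.42, 5.56 and 3.11 CPM in In/B, 9.94, 5.76 and 6.71 CPM in RA-sufficient PL, and 12.9, 4.83 and 0.481 CPM in RA-deficient PL, and was not called in any comparison. The remaining calls of this list were lower, 4 in RA-sufficient PL and 2 in RA-deficient PL.

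Of 16 S phase genes that are E2F targets, 0 were called higher and 8 lower in RA-sufficient PL, and 2 higher and 4 lower in RA-deficient PL against In/B. The licensing factor Cdt1 fell from 77.8 ± 12.5 CPM to 8.55 ± 4.21 and 26.9 ± 14.0 CPM, and Mcm2, a subunit of the replicative helicase, from 463.2 ± 37.7 CPM to 71.9 ± 12.8 and 167.6 ± 89.3 CPM, in RA-sufficient and RA-deficient PL. Mcm5, another helicase subunit, and Rrm2, of ribonucleotide reductase, were called higher in RA-deficient PL than in In/B, with Mcm5 at 1100 ± 45.9 against 450.0 ± 39.6 CPM and Rrm2 at 313.8 ± 58.4 against 143.6 ± 7.09 CPM. Rrm2 was the 1 gene of the list called between the PL groups, with 104.3 ± 9.17 CPM in RA-sufficient PL (log2 fold change 1.58, SE 0.17, adjusted p = 0.00179 by edgeR).

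**Figure D5:**
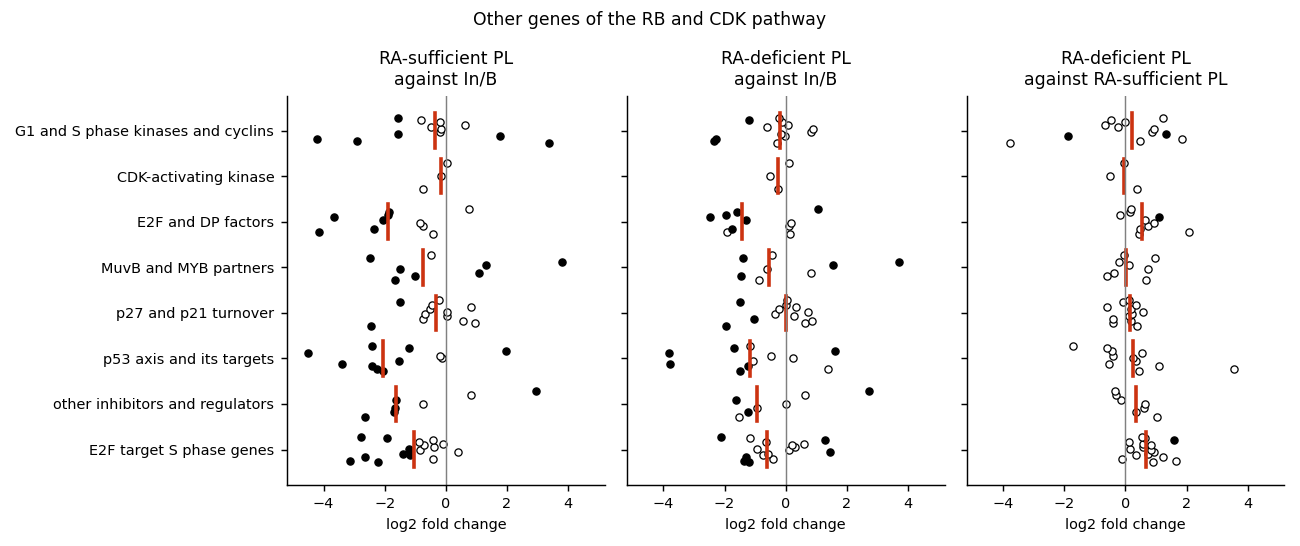
Fitted log2 fold change (x axis) of the 79 tested genes of the 8 pathway lists in the 3 comparisons, with 1 point per gene, filled where called, and a red line at each list's median. Medians of E2F and DP factors lie at -1.88, -1.44 and 0.55 from left to right.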

How the data were processed

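Uchl1-EGFP-positive cells were sorted, libraries were made with a stranded poly(A) kit, and single-end reads were trimmed with cutadapt 1.9, aligned to mm9 with STAR 2.5.2b and counted per gene with featureCounts by the authors. The deposited values are raw counts per gene, without normalization, and all 9 columns were matched to a group and replicate by name, with 0 columns unused. The annotation and the use of strand in counting are not given in the sources used here, so genes that overlap can share counts.

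Pairs of groups, 3 libraries each, were compared with edgeR 4.0.16 (R 4.3.3): TMM scaling, filterByExpr, the quasi-likelihood test and Benjamini-Hochberg adjustment over all genes tested, as in the pairwise design of the study, which used DESeq2. The procedure was tested on simulated data with 200 changed genes. The methods of the study give 2 or 3 independent cell preparations, and which libraries these were is not stated, so that p-values measure the spread between libraries, part of which may be technical. Counts of replicates within each group differed by more than sampling noise. Same-numbered libraries did not deviate together (r from -0.254 to 0.122), so the numbers were not used as pairs. Intervals of count ratios are at the 95% level and cover counting error only, and 3 counts were taken as the floor of a library.

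Positions and exon lengths are from GENCODE M1 on mm9, and flanking sequences from RefSeq on GRCm38.p6. As alternatives, scaling was by RLE or by library size only, the filter was dropped or set to a mean of 50 counts, the 9 libraries were fitted together, replicate numbers entered as blocks, DESeq2 1.42.0 replaced edgeR, changes were tested against 2-fold, and single libraries were left out. The members, pathway lists and marker lists were chosen with earlier results of these data known. Named genes are all 9 members, their overlapping genes, and in each pathway list at most 3 called genes per direction with the largest change and a mean of at least 10 CPM in a compared group. Outside this rule, E2f2 and Ccna1 in RA-deficient PL, Kit, Stra8, Spo11, Sohlh2, Dmrtb1, Cdkn2b, Sox9, Insl3, Sparc, Vim, Col1a1, Nr5a1, Mdm4 and the CDK-activating kinase genes were named after their values were seen. The Leydig markers Star, Cyp11a1 and Hsd3b6 were also named after their values were seen. For likeness the genes with the highest r on log2(CPM + 1) were named. Figures were drawn with matplotlib 3.10.9.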

Additional observations from a re-analysis of the deposited data

Results flagged for a closer look

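For 4 members the PL groups differed, tested as RA-deficient against RA-sufficient PL with edgeR's quasi-likelihood test and Benjamini-Hochberg adjustment. Without an RA-deficient In/B group, the change from In/B to PL under RA deficiency was not measured. The log2 fold changes were -2.66 for Rbl2, -1.88 for Cdkn1a and 1.75 for Cdkn2a (adjusted p = 0.00559, 0.0207 and 0.0271). Each had 3 of 3 libraries on its own side of the other group, as did 47.4% of all tested genes. For Cdkn2d, RA-sufficient PL had 47.94 times the counts of RA-deficient PL relative to library totals (adjusted p = 0.0394), resting on 61 counts against 2. Sertoli marker sums were at least 2879 CPM in RA-sufficient PL and at most 516.5 CPM in RA-deficient PL, the direction of Rbl2, Cdkn1a and Cdkn2d and the reverse of Cdkn2a. In/B, a group of another stage and age, had Sertoli sums of 67.3 to 351.8 CPM. Cdkn1a and Cdkn2d averaged 31.4 and 0.73 CPM in In/B and 7.69 and 0.027 CPM in RA-deficient PL. Rbl2 overlapped between In/B and RA-deficient PL. Sums of differentiating spermatogonia markers, 1755, 1714 and 396.5 CPM in RA-deficient PL and 346.3 to 777.0 CPM in RA-sufficient PL, were lowest among the RA-deficient libraries in replicate 3, as was Cdkn2a. The part of either was not tested.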

How the results depend on the processing

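The 4 members called for RA-sufficient PL against In/B, Cdkn1a between RA-deficient PL and In/B and Rbl2 between the PL groups were called with the same direction under all 14 alternatives run for each. Between the PL groups, Cdkn1a was not called in 2 of 14, Cdkn2a in 5 of 14 and Cdkn2d in 7 of 13. For RA-deficient PL against In/B, 2 members were called with library size only, with all 9 libraries in 1 fit and with DESeq2, and 1 to 3 with a library left out. Between the PL groups 1 was called in the test against a fold change of 2, and 2 to 4 with a library left out. Of the pathway genes, 14 were called in the test against a fold change of 2 for RA-deficient PL against In/B. Between the PL groups 10 were called with all 9 libraries in 1 fit, 2 in the test against a fold change of 2, 11 with DESeq2 and 2 to 17 with a library left out. Library size only moved the median of all genes to -0.31 (from 0.0038) and -0.27 (from -0.089) on the log2 scale when RA-deficient PL was set against In/B and RA-sufficient PL, and reversed Cdkn1c against In/B (-0.18) and Rb1 between the PL groups (-0.099).

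With a library left out, uncalled values that changed sign were Cdkn1a (-0.67 to 0.10) and Cdkn2c (-0.20 to 0.37) for RA-sufficient PL against In/B, Cdkn1c (-0.084 to 0.57) and Rbl2 (-0.47 to 0.17) between RA-deficient PL and In/B, and Rb1 (-0.022 to 0.21) between the PL groups. With the replicate block, 4, 1 and 3 members were called in the 3 comparisons, Cdkn2d losing its call (adjusted p = 0.0938 from edgeR), and the causes of these changes were not tested. With 3 libraries a group and 0 to 2 counts of Cdkn2d in RA-deficient PL, its ratio is poorly bounded.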
